A study of Homo sapiens with 4 samples.

Results

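Of 60886 accessible regions in human mammary epithelial cells with and without the HRAS G12V oncogene, 3992 (6.56%, 95% Wilson interval 6.36 to 6.76%) carried a sequence resembling the binding core of CTCF. Accessible regions were the merged ATAC-seq peaks of 4 libraries on the autosomes and X, and peaks sharing at least 1 bp were joined. A 150 bp window was read from hg19 at the midpoint of each region's best-ranked peak. A region was a member if the window held, on either strand and with at most 1 mismatch, the 14-base core C, C, not C, C or G, any base, A, G, purine, G or T, G, G, C, purine, C or G. The match describes sequence under an open region and does not measure binding.

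The cells were MCF10A, an immortalized and nontransformed human breast epithelial line, and the same line transformed with H-RAS Gv12, called G12V here. HRAS G12V is a mutant small GTPase locked in its active, signalling state. Both cell types had 2 biological replicates, shared one medium containing epidermal growth factor, insulin, hydrocortisone, cholera toxin and horse serum, and were used within 5 passages. ATAC-seq inserts adapters into open chromatin with a transposase, and the deposited lists held 12888 and 34463 peaks for MCF10A replicates 1 and 2 and 14042 and 46673 peaks for G12V replicates 1 and 2. Per the study's methods, a lentiviral HRAS expression vector was brought in beside a GFP vector and carriers were selected with hygromycin, while whether a clone or a pool was used was not given in the sources used here. The lists give no read depth, so the number of peaks stands in for it, and the replicate 1 lists were the shorter ones in both cell types.

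CTCF is a zinc finger protein that reads a long, GC-rich motif and keeps nucleosomes away from its sites. Together with the ring-shaped cohesin complex it sets the borders of chromatin loops and domains, and loops preferentially join a pair of CTCF motifs that point towards each other. It also acts as an insulator at imprinted loci, and methylation of a CpG inside the motif can block its binding at some sites.

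The sequences below show what a core looked like at well-ranked members of each group. They are examples of the members called in both G12V and neither MCF10A library (gained), in both MCF10A and neither G12V library (lost), and in all 4 libraries. Each is given 5′ to 3′ on the strand of the match with 8 flanking bases to each side (hg19), and capitals mark the 14-base core. Of the 5 best-ranked gained members, the second, at the XKR6 promoter with an exact core, is not printed, and 3 of the 5 lost and 3 of the 5 shared ones are shown. These examples do not tell the groups apart.
gained, intron of WDPCP (chr2:63926362-63926391): atgtactaCCTCTAGAGGGCAGttcaaagc
gained, POC1A promoter (chr3:52188832-52188861): agcctgggCAACAAGAGGGCGGgccgggtt
gained, upstream of CPNE8 (chr12:39315054-39315083): ctatctgaCCAGCAGGTGGCACatgcctac
gained, intron of FLG-AS1 (chr1:152413516-152413545): tgacttgaACACTAGGTGGCAGcctgaccc
lost, intron of FAM174A-DT (chr5:99853222-99853251): gcctccagCCAGAAGGTGGCACttacaaaa
lost, intron of STS (chrX:7170412-7170441): ttggttccCCGGAAGGTAGCAGgtaggtgt
lost, intron of MR1 (chr1:181014085-181014114): gttctgggCCTGAATGGGGCGGcacagaga
all 4 libraries, G3BP1 and ATOX1 (chr5:151151123-151151152): cggttgcgCCACAAGGTGGGGCccgtgtac
all 4 libraries, FH promoter (chr1:241682858-241682887): cggggaggCCGGGGGATGGCGGcctgcgct
all 4 libraries, GOLIM4 promoter (chr3:167813548-167813577): tgggcaggCCGCACGGGGGCGCggcccgga
The WDPCP, CPNE8 and FAM174A-DT cores had no mismatch, and the other 7 had 1. Each of the 3 cores shown from all 4 libraries had its mismatch at position 12 or 6, counted from 1 at the core's 5′ end.

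Among all members, 926 matched the core exactly and 3066 had 1 mismatch. The cores were diverse: 2282 different 14-base sequences occurred, and 1549 of them occurred once. The commonest was CCAGCAGAGGGCAG, with 36 members on 15 chromosomes. Next came CCACCAGGGGGCAG and CCACTAGATGGCAG, each with 23 members. The first was found in 1 gained member and 1 member called in all 4 libraries, the second in 0 of either, and the third in 1 gained member and 0 members called in all 4.

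Mismatches were spread unevenly over the core. Position 12, a C, was the one replaced in 17.9% of the members with 1 mismatch, position 1 (C) in 16.1% and position 6 (A) in 13.1%. The G at position 7 was replaced in 4.37% and the G at position 10 in 5.15%, although each of these positions also allows a single base. Positions at which the rule allows more than 1 base can hold fewer mismatches by construction, and position 5, where any base is allowed, can hold none.

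**Figure D1:**
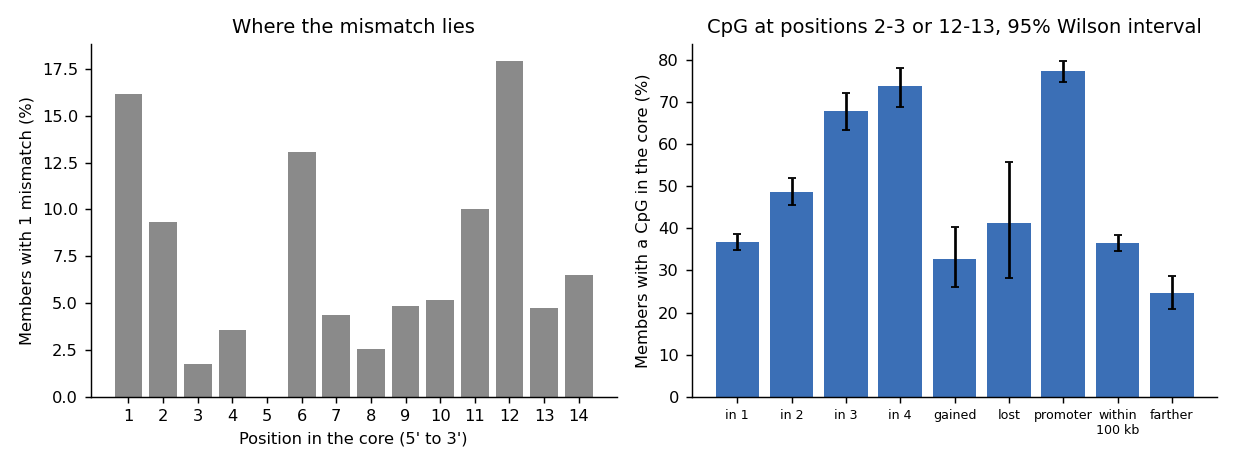
Left, the share of members with 1 mismatch (%) in which each position of the 14-base core was the mismatched one, with peaks at position 12 (17.9%) and position 1 (16.1%). Right, the share of members whose core held a CpG at positions 2 and 3 or 12 and 13, with 95% Wilson intervals, by the number of libraries that called the region, for gained and lost members and by distance from a gene start. The share rose from 36.7% in members called in 1 library to 73.7% in those called in all 4.

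For comparison, the reversed core, not complemented, was sought in the same windows. It allows the same bases in reverse order, which places a required C directly before a required G. The core itself requires no such CpG, so the comparison does not isolate base composition. The reversed core was found in 685 regions (1.13%). Windows moved by 1000 or 2000 bp to either side held a CTCF match in 1.55 to 1.84% of regions. For exact matches the contrast was wider: 1.52% of the windows at the peak held one, against 0.0854 to 0.0985% of the moved windows. In each library the share of peaks with the core exceeded the share with the reversed core, by 4.96 percentage points on average, in 4 of 4 libraries (exact two-sided sign-flip permutation test, p = 0.13, the smallest that 4 libraries allow).

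The accessible regions covered 39.48 Mb, 1.30% of the genome searched. They held 2629 of the 15211 exact cores in that genome (17.3%), and 11997 of the 273726 cores with 1 mismatch (4.38%). Most exact cores of the genome therefore lay outside any called region, where these lists cannot tell closed chromatin from openness below the peak threshold.

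Most members were seen in few libraries. A single library called 2311 of the 3992 members (57.9%), beside 56.4% of all regions. G12V replicate 2, the longest list, alone called 1604 members, MCF10A replicate 2 alone called 466, G12V replicate 1 alone 143 and MCF10A replicate 1 alone 98. Another 921 members were called in 2 libraries, 414 in 3 and 346 in all 4.

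G12V replicate 2 called 80.6% of the members and 75.1% of the regions without a match, and G12V replicate 1 called 23.5% and 21.96%. The MCF10A libraries had the opposite order: replicate 2 called 48.0% of the members and 55.2% of the others, and replicate 1 called 17.8% and 20.4%. Members were thus more often called than other regions in both G12V libraries and less often in both MCF10A libraries.

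Of the members, 165 were gained (4.13%, where 3.20% of all regions were gained) and 46 were lost (1.15%, where 2.14% of all regions were lost). The 346 members called in all 4 libraries were 8.67% of the members, beside 8.36% of all regions. Read the other way, 8.46% of the 1951 gained regions held a match (95% Wilson interval 7.30 to 9.78%), 3.53% of the 1303 lost regions (2.66 to 4.68%) and 6.80% of the 5090 regions in all 4 libraries (6.14 to 7.52%). The reversed core gave 1.03%, 0.461% and 2.44%.

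These counts followed the libraries compared. Leaving out G12V replicate 1 gave 1779 gained members, leaving out MCF10A replicate 2 gave 402 and leaving out G12V replicate 2 gave 314. Lost members rose to 515 when MCF10A replicate 1 was left out, to 207 for G12V replicate 2 and to 152 for MCF10A replicate 2. With 1 library left out at a time, 6.79 to 8.19% of the gained regions and 3.59 to 4.86% of the lost ones held a match, where 6.08 to 6.81% of all regions did. Without MCF10A replicate 2 the gained share, 6.79%, was no higher than that of all regions, 6.81%, and 11.38% of members were gained where 11.40% of all regions were.

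The excess of gained members also depended on list length. With every list held to 12888 peaks, 64 members were gained (4.24%, where 5.24% of all regions were gained) and 51 were lost (3.38%, where 5.19% of all regions were lost). The gained share of members was then below its background, the opposite of the full lists.

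Regions called in 1 library of each cell type whose replicate numbers differed served as a comparison that does not follow cell type. There were 68 such crossed members, 1.70% of the members, where 1.47% of all regions were crossed. Of the crossed regions, 7.59% held a match (6.03 to 9.51%), an interval that overlaps that of the gained regions and lies above that of the lost ones. The intervals cover counting error only, over regions that share 4 libraries.

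The gained to lost contrast was wider for exact cores in the full lists, and it was not computed for them at equal list length. Exact cores were found in 48 of the 1951 gained regions (2.46%) and in 5 of the 1303 lost ones (0.384%). They made up 29.1% of the gained members (22.7 to 36.4%), 10.9% of the lost members (4.73 to 23.04%) and 11.3% of those in all 4 libraries (8.36 to 15.04%). Crossed members had exact cores in 29.4% (19.9 to 41.1%). The share of exact cores among members fell with the number of libraries, from 26.6% in 1 library to 21.8% in 2, 17.4% in 3 and 11.3% in all 4.

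**Figure D2:**
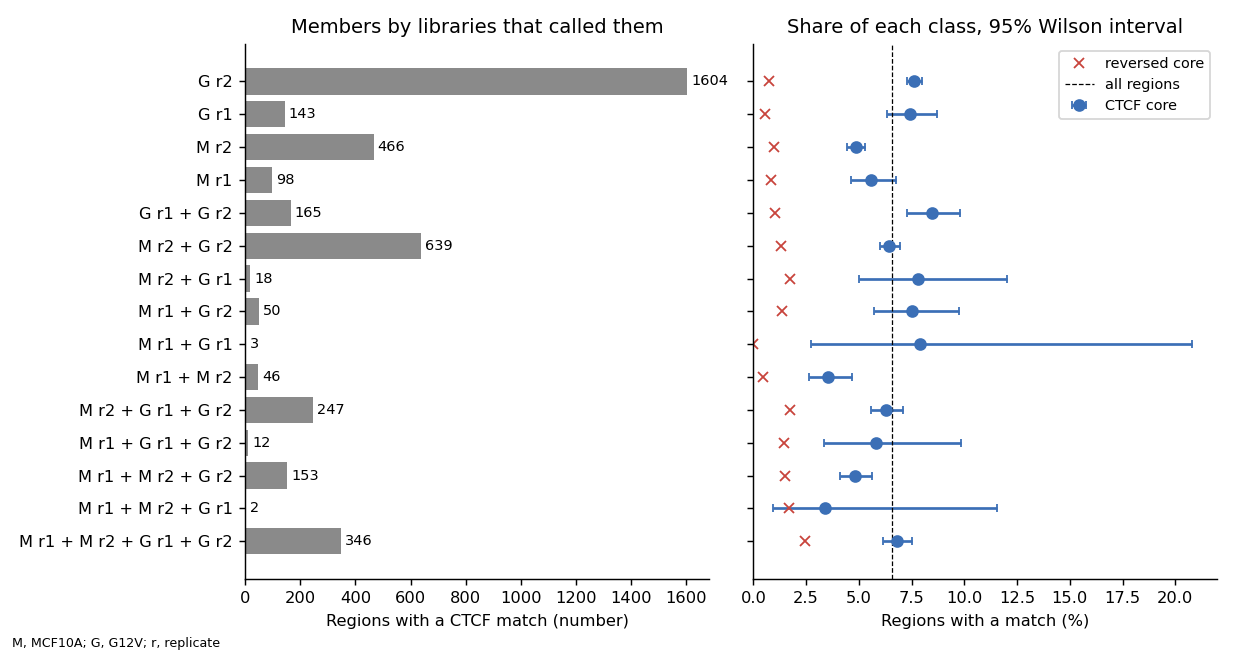
Left, number of members called by each combination of libraries (M, MCF10A; G, G12V; r, replicate). Right, share of all regions in each combination that held a CTCF core (blue, with 95% Wilson interval) or the reversed core (red crosses), with the share over all regions, 6.56%, as the dashed line. The combination of both G12V libraries stood at 8.46% and that of both MCF10A libraries at 3.53%.

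The same question was asked of each library's own peaks, so that no merging was involved. A CTCF core was found in 5.96% of the peaks of MCF10A replicate 1, 5.86% of MCF10A replicate 2, 7.19% of G12V replicate 1 and 6.998% of G12V replicate 2. Both G12V libraries were higher than both MCF10A libraries, with means of 7.09% ± 0.133 and 5.91% ± 0.0711 (SD, n = 2 each). The difference was 1.18 percentage points (exact two-sided permutation test, p = 0.333, the smallest that 2 against 2 libraries allow). Exact cores were found in 0.962%, 1.09%, 1.48% and 1.70% of peaks in the same order, again without overlap (difference 0.566 percentage points, exact permutation p = 0.333).

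The order depended on list length for replicate 2. With every list held to its 12888 best-scoring peaks, the shares were 5.96% and 5.55% in MCF10A replicates 1 and 2 and 7.11% and 5.60% in G12V replicates 1 and 2. The cell types then overlapped, and the difference was 0.601 percentage points (exact permutation p = 0.667). For exact cores the equal lists gave 0.962%, 0.698%, 1.42% and 0.776%. At this length G12V replicate 2 was close to MCF10A replicate 2 on both measures, while G12V replicate 1 was the highest of the 4 libraries on both. At equal lengths 4.68% of gained and 3.76% of lost regions held a match, both below the 5.78% of all regions at that setting.

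Distance from gene starts separated the libraries further. Peaks were called promoter-proximal if any part lay less than 1000 bp before or 500 bp after a transcription start site (TSS), mid-range if otherwise within 100 kb, and far if beyond. Among promoter-proximal peaks the share with a CTCF core was 9.34%, 9.26%, 9.43% and 9.42% in MCF10A replicates 1 and 2 and G12V replicates 1 and 2, a difference of 0.126 percentage points. Among mid-range peaks it was 4.63%, 4.98%, 6.34% and 6.52%, a difference of 1.62. Among far peaks it was 2.37%, 2.99%, 4.61% and 5.66%, a difference of 2.46. In each class both G12V libraries were above both MCF10A libraries, and each comparison had an exact permutation p of 0.333. All lists were the full, unequal ones, and the split by distance was not repeated at equal list length. Whether the difference itself varied with distance was not tested.

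**Figure D3:**
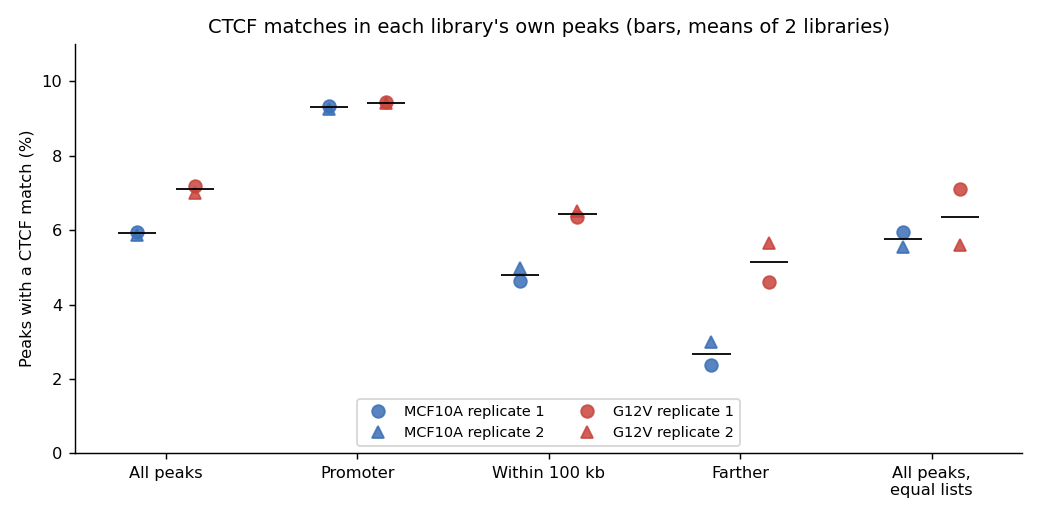
Share of each library's own peaks with a CTCF core (%), for all peaks, for promoter-proximal, mid-range (within 100 kb) and far peaks, and for all peaks when each list was held to its 12888 best. Circles are replicate 1, triangles replicate 2, blue MCF10A, red G12V, and bars the mean of 2 libraries. Far peaks with a core were 2.37 and 2.99% in MCF10A and 4.61 and 5.66% in G12V, while the promoter values lay between 9.26 and 9.43%.

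Over merged regions of the full lists, gained ones held a core more often than lost ones away from promoters but not at them. This split was not repeated at equal list length either. Of far regions, 9.60% of the 302 gained ones held a core (29 members, 95% Wilson interval 6.77 to 13.5%) and 1.59% of the 252 lost ones (4 members, 0.619 to 4.01%). Of mid-range regions the shares were 8.37% of gained (117 members) and 3.01% of lost (28 members). Of promoter-proximal regions they were 7.57% of gained (19 members, 4.90 to 11.5%) and 11.7% of lost (14 members, 7.08 to 18.6%), with overlapping intervals.

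Members as a whole lay nearer to gene starts than other regions. They were promoter-proximal in 26.6% (1063 members), against 18.0% of regions without a match. The median distance from the match to a TSS was 14017 bp over all members, 29405 bp for gained members, 6473 bp for lost ones and 199 bp for those in all 4 libraries. Members called in all 4 libraries were promoter-proximal in 71.4%, gained members in 11.5% and lost members in 30.4%. The regions of these classes without a match were promoter-proximal in 51.7%, 12.99% and 8.43%.

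Within each library, peaks with a core were promoter-proximal more often than peaks without one: 53.4% against 32.8% in MCF10A replicate 1, 42.4% against 25.8% in MCF10A replicate 2, 44.3% against 32.9% in G12V replicate 1 and 28.3% against 20.5% in G12V replicate 2. The mean difference was 14.1 percentage points, in 4 of 4 libraries (exact sign-flip permutation test, p = 0.13, the smallest possible). It was absent for exact cores, where the mean difference was -0.163 percentage points (exact p = 1.0).

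The 2 kinds of match therefore differed in place. Members with 1 mismatch included most of those at promoters, where only 14.9% of members had an exact core, against 26.2% at mid range and 26.6% farther out. Promoter windows were also richer in G and C (median 65.3%, against 47.3% and 43.3%). The reversed core, which requires a CpG that the CTCF core does not, was found in 3.36% of promoter-proximal regions, 0.682% of mid-range and 0.335% of far ones. The CTCF core was found in 9.39%, 6.15% and 4.88% of these classes, and its exact form in 1.396%, 1.61% and 1.30%. The part of composition in the promoter matches was not tested.

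**Figure D4:**
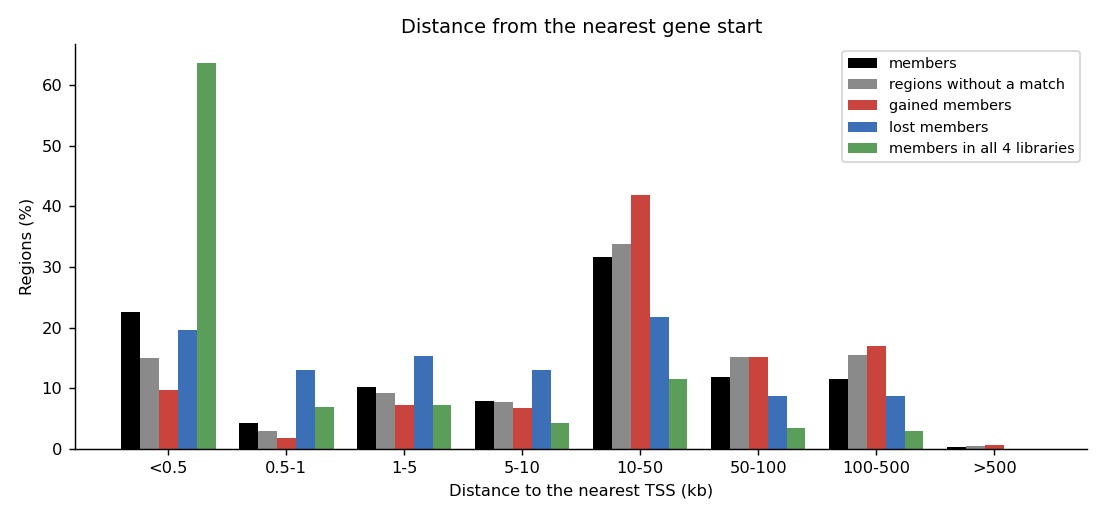
Share of regions (%) by distance to the nearest TSS (kb), for all members, regions without a match, gained members, lost members and members called in all 4 libraries. Members of all 4 libraries were within 0.5 kb in 63.6%, and gained members were most often at 10 to 50 kb (41.8%).

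The CpGs counted in the core moved with promoter position and with the number of libraries. They were counted at positions 2 and 3 and at 12 and 13. CpGs elsewhere in the core, at positions 4 and 5 or created by a mismatch, are also allowed by the rule and were not counted. A counted CpG was present in 45.9% of all members, at positions 2 and 3 in 18.1% and at 12 and 13 in 38.8%. It was present in 77.3% of promoter-proximal members, 36.4% of mid-range and 24.6% of far ones. By number of libraries the share was 36.7% in 1, 48.6% in 2, 67.9% in 3 and 73.7% in all 4. Gained members had one in 32.7% (26.0 to 40.2%) and lost members in 41.3% (28.3 to 55.7%), intervals that overlap. No methylation was measured in these files.

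Members were richer in G and C than other regions over the whole window, with medians of 56.7% and 48.0%. They held the AP-1 site (TGACTCA or TGAGTCA, each the reverse complement of the other, so both strands are covered) in 198 cases (4.96%), against 16.7% of the regions without a CTCF core. AP-1 is the FOS and JUN factor family that lies downstream of RAS signalling. The site was found in 7 of 165 gained members (4.24%, where gained regions without a CTCF core had 17.1%) and in 2 of 46 lost members (4.35%, against 18.9%).

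Neither strand was preferred by much: 48.1% of the members had the core on the plus strand (46.5 to 49.6%). Relative to genes the balance was less even. Within 1000 bp of a TSS the core lay on the gene's own strand in 601 of 1067 members (56.3%, 53.3 to 59.3%), with 56.2% upstream of the start and 56.5% downstream. Nearest to protein-coding starts it was 57.7% of 797.

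Since CTCF loops favour facing motifs, the orientation of consecutive members along each chromosome was counted. The 3969 neighbouring pairs, a median of 376102 bp apart, were convergent in 25.02%, divergent in 25.1% and tandem in 49.9%. Pairs under 10 kb apart were convergent in 15 of 91 cases (16.5%, 10.3 to 25.4%) and divergent in 29 (31.9%, 23.2 to 42.0%). At 10 to 100 kb, 22.8% of 693 pairs were convergent (19.8 to 26.1%) and 29.0% divergent (25.7 to 32.5%). Consecutive members are not known loop anchors, and no contact data were used.

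Cores were not centred on the peaks. Inside 25 bp of the midpoint lay 37.1% of the members' cores, where 37.2% of possible positions lie. Towards the edges of the 150 bp window the sides were unequal, with 132 exact cores at 45 to 60 bp below the midpoint and 75 at the same distance above it, and 404 and 286 cores with 1 mismatch. Over 300 bp to each side of the midpoint, 1788 of 2514 exact matches (71.1%, 69.3 to 72.9%) lay on the side of lower coordinates, with a median offset of -69 bp. This held for cores on either strand: 75.7% of 1232 on the plus strand and 66.8% of 1282 on the minus strand.

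The displacement was present in all 4 libraries, with 66.7% and 65.4% on the lower side in MCF10A replicates 1 and 2 and 71.8% in both G12V replicates. The medians were -67.5, -58, -72 and -69 bp. AP-1 sites around the same midpoints were displaced alike, 70.0% of 27268 to the lower side with a median of -63.5 bp. It was smaller for the regions called in all 4 libraries, at 55.0% of 151 exact CTCF cores, than for gained regions, at 78.7% of 122. The peak caller had been run with a shift size of 75 bp, and its part in the displacement was not tested.

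The window set by the rule therefore missed some cores beside the peak. A 150 bp window centred 75 bp lower, chosen after this profile was seen, gave 4546 regions with a match (7.47%), of which 206 were gained and 43 lost. That is 4.53% gained, where 3.20% of all regions were gained, and 0.946% lost, where 2.14% of all regions were lost. The shares per library were then 6.83% and 6.17% in MCF10A replicates 1 and 2 and 8.36% and 8.04% in G12V replicates 1 and 2.

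**Figure D5:**
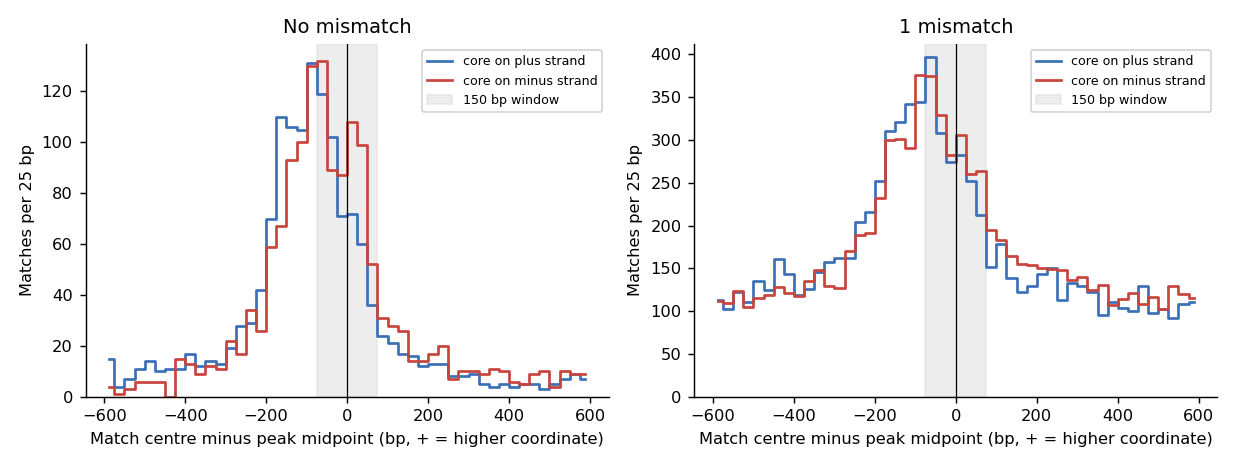
Number of exact cores (left) and of cores with 1 mismatch (right) per 25 bp around the midpoint of the best peak of each region, by strand of the core. Positive distances are towards higher coordinates, and the grey band is the 150 bp window of the rule. The median exact core lay 69 bp below the midpoint, and cores on both strands were displaced to that side.

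Peaks with a core were compared with the other peaks of their list by score rank and width. The median score percentile within the list was 48.2 with a core and 50.1 without in MCF10A replicate 1, 46.1 and 50.4 in MCF10A replicate 2, 50.1 and 49.99 in G12V replicate 1, and 46.0 and 50.3 in G12V replicate 2. Lower values with a core were found in 3 of 4 libraries, and the mean difference of -2.61 was not distinguishable from the spread between libraries (exact sign-flip permutation p = 0.25). Median peak widths were 416, 529, 419 and 529 bp with a core and 411, 523, 420 and 553 bp without, differing by -3.5 bp on average (exact permutation p = 0.875). At equal list sizes both mean differences changed sign, to 0.279 percentiles and 31.8 bp. For exact cores alone they were larger, -8.14 percentiles and -36.6 bp (exact permutation p = 0.13 for each, the smallest possible).

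Among the chromosomes, the share of regions with a match ran from 5.31% on chromosome 13 to 9.20% on chromosome 22.

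At single loci, the strongest gained member (chr2:63925974-63926750) lay in an intron of WDPCP, a planar cell polarity effector needed for cilia, 110634 bp from the start of MDH1, the cytosolic malate dehydrogenase. It was called at score percentiles 90.5 and 89.6 in G12V replicates 1 and 2 and had no peak in either MCF10A library. The scores there were 119 and 219, where a score is 10 times the negative log10 of the peak's p-value and depends on depth. A distal gained member upstream of CPNE8, a copine that binds membranes with calcium, reached percentiles 81.3 and 71.4 in G12V replicates 1 and 2. A member in FLG-AS1, an RNA antisense to the filaggrin locus of the epidermal differentiation cluster, reached 67.2 and 73.4. It lay upstream of the nearest TSS, that of CRNN (cornulin, a late differentiation protein of squamous epithelium), at position -26792.

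Of the gained members, 19 were at promoters. The best-ranked were at XKR6, of the XK-related family (percentiles 74.4 and 80.7 in G12V replicates 1 and 2), and at POC1A, a centriole protein (74.1 and 76.5). The core lay 79 bp downstream of the XKR6 start, in a UTR exon, and 141 bp upstream of the POC1A start. TPST1, a tyrosylprotein sulfotransferase of the Golgi, followed at 66.9 and 69.4 with the core 26 bp upstream. MRPL38, a subunit of the mitochondrial ribosome, had an exact core 63 bp upstream and percentiles 69.3 and 65.8. The remaining 4 of the 8 named were at LINC01609, TRIM38 (an innate immune ubiquitin ligase), NOL9 (an RNA kinase of ribosomal RNA processing) and AP2M1 (a clathrin adaptor subunit), with their lower percentile between 47.5 and 54.9.

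The strongest lost member (chr5:99852841-99853547) held an exact core in an intron of FAM174A-DT, a transcript divergent from FAM174A. Its percentiles were 96.5 and 92.6 in MCF10A replicates 1 and 2, and no peak was called in either G12V library. Its lower percentile was above that of every gained member. Next were an intron of STS, the steroid sulfatase gene (91.9 and 77.8), and an intron of MR1, which encodes a molecule presenting microbial metabolites to T cells (77.8 and 93.2). An intron of PKHD1, the fibrocystin gene of recessive polycystic kidney disease, had 81.7 and 73.1, and one of LINC01937 had 71.9 and 93.2. Only the first of these 5 had an exact core.

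Lost members at promoters were of middling or low rank. TMEFF1, a transmembrane protein gene, led with percentiles of 57.8 and 46.6 in MCF10A replicates 1 and 2. The others of the 8 named were at LINC01569, LINC01181, ENSG00000260177, LINC02251, GGA1 (a Golgi clathrin adaptor), ACSS3 (a mitochondrial acyl-CoA synthetase) and LYPD6B. All 8 had 1 mismatch, and the lower percentile fell to 19.03 at LYPD6B. A peak this near to the threshold can be missing from another list without a difference in accessibility.

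The members called in all 4 libraries were led by a region at G3BP1, a stress granule RNA-binding protein, and ATOX1, a copper chaperone (chr5:151150137-151152844), with percentiles from 99.88 to 99.98. Then came the promoters of FH, the fumarate hydratase of the citric acid cycle (99.74 to 99.98), GOLIM4, a Golgi membrane protein (99.25 to 99.97), ZNF354B, a zinc finger gene (98.87 to 99.72), and FRG1-DT beside FRG1 (98.49 to 99.66). These 5 matches each had 1 mismatch. Windows at 4 of them were 71.3 to 76.0% G and C, and the window at G3BP1 was 52.0%. FRG1 has near-identical copies elsewhere in the genome, so the unique alignment of its reads is uncertain.

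Few of the genes listed for CTCF had a member nearby, as few genes did at all: 1701 of 20098 protein-coding genes (8.46%) had a member within 10 kb of the TSS, and 7.10% when long non-coding genes were added. Of 19 genes at loci known for CTCF sites, 2 had a member within 10 kb of the TSS: PLAGL1, an imprinted zinc finger gene, with the core 469 bp downstream of the start, and BCL6, a transcriptional repressor, with the core 32 bp downstream. Both were called in MCF10A replicate 2 and G12V replicate 2 and in neither replicate 1 library, and both had 1 mismatch. The clustered protocadherins, whose promoter choice uses CTCF, had a member at 0 of 15 genes of the alpha, 0 of 16 of the beta and 0 of 22 of the gamma cluster. Of 19 genes for CTCF, cohesin and their regulators, 2 had one: WAPL, which releases cohesin from DNA, 158 bp upstream of its start in all 4 libraries, and PDS5B, a cohesin regulator, 89 bp upstream in every library but MCF10A replicate 1. None of the 3 genes that the study followed singly, HRAS, FN1 and SLCO5A1, had a member within 10 kb. All these distances were taken from 1 TSS per gene, the 5′ end of its whole record. A gene with its known CTCF site at another start could therefore be missed, and a member found need not be at that site.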

How the data were processed

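ATAC-seq peak lists of 2 MCF10A and 2 G12V libraries were used. Per the study's methods, the authors aligned reads with bowtie (0.12.9) to hg19, kept unique reads, moved read starts to the transposition centre and called peaks with MACS (1.4.2: tag size 51, no model, shift size 75, local window 25000 bp, p threshold 0.0001). The study pooled replicates for its own comparison, whereas the deposited lists are per library. The deposited score of each peak is 10 times the negative log10 p-value, with a minimum of 40 in these lists, and was used only as a percentile within its list. Presence or absence of a peak stands in for reads, so a locus under the threshold of a short list looks absent.

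Peaks overlapping by at least 1 bp were merged with Python (3.11.15), numpy (2.4.6) and pandas (2.3.3), and hg19 sequence was read with pysam (0.24.0). The scan and the merging were tested on simulated data. TSSs came from GENCODE release 44 mapped to GRCh37 (20098 genes for proteins and 18592 for long RNAs), not from RefSeq as in the study. Each gene had 1 TSS, the 5′ end of its whole record, so alternative starts were not considered, also for the listed genes. Repeats were not masked. Shares have 95% Wilson intervals, which cover counting error only. Libraries were compared by exact permutation tests. The named regions were the 5 gained, 5 lost and 5 shared members with the highest lowest percentile, up to 8 gained and 8 lost promoter members in the same order, and members within 10 kb of listed genes. The members, lists and tests were chosen with earlier results of these data known.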

Additional observations from a re-analysis of the deposited data

How the results depend on the processing

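The libraries were few and the lists unequal, so no exact test could pass 0.05, counts of gained and lost members followed list length, and the cause of each change below was not tested. The reported 3992 members (6.56% of regions; 165 gained, 46 lost, 346 in all 4 libraries) became 926 (1.52%; 48, 5, 39) with 0 mismatches, 12180 (20.0%; 465, 153, 1714) when the whole region was searched, 7423 (12.2%; 310, 80, 646) with a 300 bp window and 1818 (6.09%; 78, 19, 175) with the better-scoring 50% of each list. With 0 mismatches, whole regions and the 300 bp window, 5.18%, 3.82% and 4.18% of members were gained, where 3.20% of all regions were. Lost were 0.54%, 1.26% and 1.08% of members, where 2.14% of all regions were lost. In the better-scoring 50%, 4.29% of members were gained and 1.045% lost, beside 3.59% and 2.44% of all regions. Equal list sizes gave 1510 members (5.78%; 64, 51, 264), and 4.24% of members were then gained where 5.24% of all regions were. The window 75 bp below the midpoint, an alternative added after the data were seen, gave 7.47%. Leaving out 1 library at a time gave 2487 to 3904 members, 6.08 to 6.81% of regions, 177 to 1779 gained, 49 to 515 lost and 342 to 599 in all libraries.

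The promoter-proximal share of members, 26.6%, was 17.1% with 0 mismatches, 33.9% over whole regions, 40.04% in the better-scoring 50%, 42.7% at equal list sizes, 21.6% with protein-coding TSSs alone, 23.5% with the moved window and 26.9 to 37.2% (highest without G12V replicate 2) without 1 library. The plus-strand share, 48.1%, was 44.9%, 49.8% and 50.8% with 0 mismatches, whole regions and the moved window. The share of exact cores on the lower side, 71.1%, was 69.2% in the better-scoring 50%, 66.3% at equal sizes and 68.7 to 72.1% without 1 library. The difference in promoter share of peaks reversed to -0.163 with 0 mismatches and the percentile difference to 0.279 at equal sizes. With 0 mismatches the percentile difference was -8.14 and the width difference -36.6 bp. The width difference, -3.5 bp, reversed to 5.75 (300 bp window), 14.5 (better-scoring 50%) and 31.8 bp (equal sizes), and was -6.67 to 3.33 bp without 1 library. The alternatives for percentile, width, exact share, side and orientation were also added after the data were seen.

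The replicate numbers are no more than numbers in the labels, and 2 pairs are too few to check whether they pair the samples. With the replicate block, the difference in the share of peaks with a core was 1.18 percentage points (exact permutation p = 0.5), 1.23 in pair 1 and 1.14 in pair 2. Gained and lost members were 631 and 380 in pair 1 and 1849 and 539 in pair 2. In pair 1, 45.96% of members were gained where 40.31% of all regions were, and 27.68% were lost where 34.67% were. In pair 2, 48.81% of members were gained where 41.73% of all regions were, and 14.23% were lost where 19.62% were.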
